A study of Danio rerio with 8 samples.

Results

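Sorted eosinophil lineage cells of cebpb-/- zebrafish larvae were compared with those of cebpb+/+ larvae by RNA sequencing. The comparison covered every gene averaging at least 10 TPM over the 4 libraries, which kept 5213 of the 30838 genes listed. The unit, TPM, is a read count corrected for gene length and set to a fixed total per library. The 2 cebpb+/+ and the 2 cebpb-/- libraries each came from about 500 eGFP-positive cells sorted from whole AB strain larvae at 7 days post fertilization (dpf), and each library was made from a different pool of larvae. All 4 carried the reporter Tg(eslec:eGFP), in which the promoter of eslec, a lectin gene of the lineage listed as si:dkeyp-75b4.10, drives eGFP. The labels give the cebpb genotype only, and whether the wild-type larvae were siblings of the mutants is not given for these libraries in the sources used here. The other 4 libraries of the series, of cebp1-/- and cebp1+/+ larvae, were not used here. Every difference below is cebpb-/- minus cebpb+/+ on log2 of TPM plus 1.

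Cebpb encodes C/EBPβ, a leucine zipper transcription factor of the CCAAT enhancer-binding protein family. Members of the family drive the differentiation of granulocytes, the white blood cells that store proteins in granules, and in mammals C/EBPβ acts in demand-driven granulocyte production. Eosinophils are granulocytes that secrete granule proteins, respond to parasites and carry receptors for chemokines and for interleukin-33. The comparison asks which transcripts of the sorted lineage cells differ when this factor is mutated. In bulk libraries like these, fewer cells of one type and less RNA per cell cannot be told apart, and a reporter driven by the promoter of a lineage gene selects cells by that gene's own activity.

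The libraries differed in breadth and in agreement. Between 12128 and 15522 genes were listed above 0, with the lowest number in cebpb-/- replicate 2 and the highest in cebpb-/- replicate 1. Replicates are separate pools of larvae, and with 2 a genotype the spread within each rests on a single difference. Across the 5213 genes, log2 values of replicates correlated at 0.859 in cebpb+/+ and 0.667 in cebpb-/-, and libraries of different genotypes at 0.630 to 0.666, given as a description across genes. Replicates lay apart by log2 2 or more at 453 genes in cebpb+/+ and at 923 in cebpb-/-. Of the defining eosinophil markers, gata2a, a GATA factor gene of the lineage, was at 539.6 and 651 TPM in the cebpb+/+ libraries and 599.8 and 624 TPM in the cebpb-/- libraries, and fcer1gl, the Fc receptor gamma chain gene, at 1709 and 1988 against 1396 and 2142 TPM (adjusted p = 0.504 and 0.413). The other defining markers lay apart between genotypes. Both mutant libraries were under both wild-type libraries in eslec, itln1 and cst14b.2, and above them in il1rl1, with values given below. Coro1a, which the study uses as a marker of all myeloid cells, was at 0.222 and 0.383 against 0.238 and 0.272 TPM, near 0 in all 4 libraries. Lyz of neutrophils and mpeg1.1 of macrophages were listed at 0 in all 4 libraries. Sequencing depth cannot be read from TPM, so counting error is not known.

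Values are given as deposited. Before testing, libraries were brought to a common scale with median-of-ratios factors over genes averaging at least 50 TPM that were above 0 everywhere, with factors of 0.860 and 0.937 for cebpb+/+ and 1.13 and 1.09 for cebpb-/-. Scaling moved the differences by -0.30: their median over the 5213 genes was 0.15 scaled and 0.44 as deposited. Log2 differences and their standard errors (SE, n = 2 libraries per genotype) are on the scaled values unless stated, and adjusted p comes from limma with Benjamini-Hochberg adjustment over all 5213 genes, two-sided. The mean of cebpb+/+ alone was under 10 TPM for 1020 of the genes and that of cebpb-/- alone for 317. At the border of the filter stood cherp with a mean of 10.001 TPM, just inside, and zgc:162171 with 9.996 TPM, just outside.

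The mutated gene itself was still read in the mutant cells. Cebpb stood at 6360.4 and 5716 TPM in the cebpb+/+ libraries and 2928 and 1480.2 TPM in the cebpb-/- libraries, so both mutant libraries lay below both wild-type libraries and neither was at 0 (log2 difference -1.84, SE 0.32, adjusted p = 0.0680; -1.53 as deposited). Cebpa, which encodes another C/EBP factor of myeloid cells, was at 1012 and 949 TPM in the cebpb+/+ libraries and 563 and 566 TPM in the cebpb-/- libraries (log2 difference -1.10, SE 0.21, adjusted p = 0.0825). The 2 mutant values of cebpa differed by little and neither overlapped the wild type. Among genes of at least 50 TPM on average, tested alone, cebpb and cebpa had adjusted p of 0.0313 and 0.0317. Cebpg was at 40.7 and 54.3 against 48.6 and 25.5 TPM and cebpd at 62.2 and 153 against 387 and 120.2 TPM, where the genotypes overlapped, and cebp1 was listed at 0 in every library.

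Of the 5213 genes, 9 rose and 8 fell in cebpb-/- at an adjusted p under 0.05, which is 0.173% and 0.153% of those tested (0.326% in either direction). In TPM as deposited 26 rose and 7 fell (0.499% and 0.134%), so that the share of higher calls was 52.9% scaled, 78.8% as deposited and 27.3% with factors from all genes of at least 1 TPM. All 9 genes that rose also passed as deposited, and of the 8 that fell all but cxcr4b did. A wider description, with no test, took genes whose libraries did not overlap between genotypes and whose means differed by log2 1 or more on both scales: 1130 were higher (21.7%) and 395 lower (7.58%) in cebpb-/-, and such genes are called separated below. Scaling moved differences by -0.30, so on the scaled values a lower gene needed a larger difference than a higher gene to count. On the values as deposited the reverse held, and a higher gene needed the larger difference. The part of the rule in the excess of higher genes was not tested. The filter favours higher genes, since 1020 genes averaged under 10 TPM in cebpb+/+ and 317 in cebpb-/-. Such genes entered only through the genotype where their mean was higher. How many of them are separated was not counted, and the shares of 21.7% and 7.58% used below carry any effect of the rule and of the filter. At an unadjusted p under 0.05 in limma, 612 were higher and 451 lower scaled, and 903 and 274 as deposited. With factors from genes of at least 1 TPM, 454 were higher and 618 lower. No gene passed in limma once any 1 of the 4 libraries was left out, with 458 to 1259 genes at an unadjusted p under 0.05 against 1063 with all 4, nor when genes down to a mean of 1 TPM were tested together (1613 of 11660 at an unadjusted p under 0.05). When only the 1851 genes averaging at least 50 TPM were tested, 150 rose and 141 fell (8.10% and 7.62%), all 17 genes among them.

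**Figure D1:**
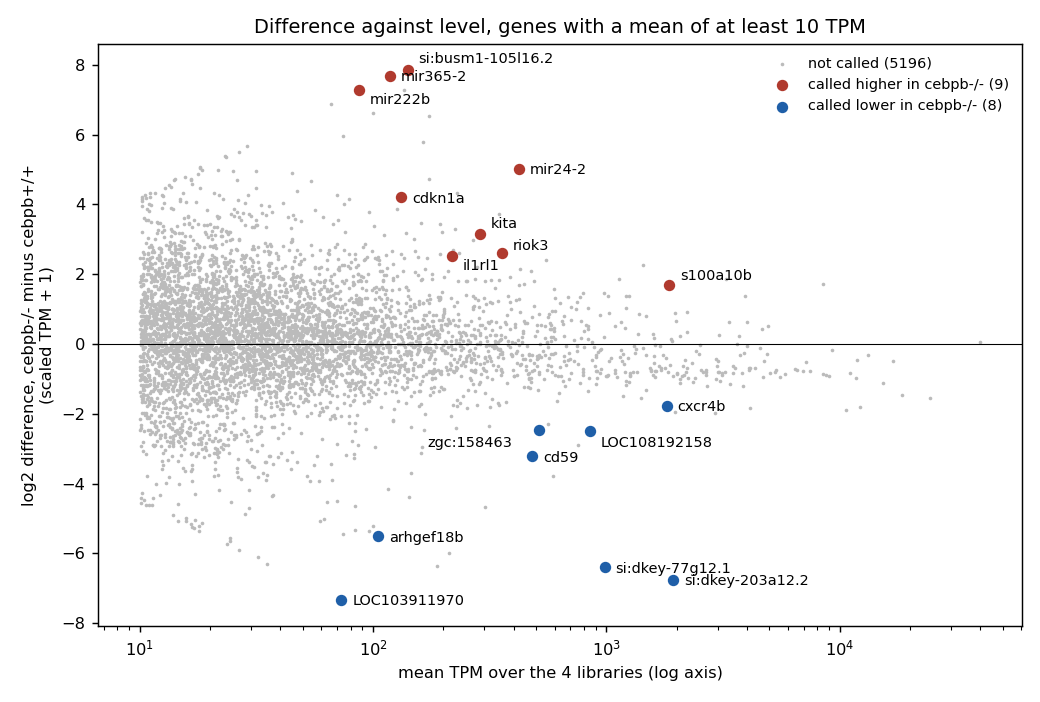
Each point is 1 of the 5213 genes, with its mean TPM over the 4 libraries on a log axis and its scaled log2 difference, cebpb-/- minus cebpb+/+. The 9 genes called higher and the 8 called lower are coloured and named, with si:dkey-77g12.1, si:dkey-203a12.2 and LOC103911970, which was listed at 0 in cebpb-/-, below -6.

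The deepest losses among abundant transcripts were in a family of small secreted protease inhibitors. Si:dkey-203a12.2 was at 4667 and 2979 TPM in the cebpb+/+ libraries and 65.0 and 26.6 TPM in the cebpb-/- libraries (log2 difference -6.76, SE 0.47, adjusted p = 0.0169). The second, si:dkey-77g12.1, was at 2206 and 1671 TPM in the cebpb+/+ libraries and 21.3 and 34.5 TPM in the cebpb-/- libraries (log2 difference -6.40, SE 0.36, adjusted p = 0.00988). Both genes fell, and the 2 libraries of each genotype stayed on their own side. RefSeq (assembly GRCz12tu, used here for names and gene order only) calls them spink2.7 and spink2.2, members of the Kazal-type inhibitor family that blocks serine proteases. Of the genes listed under the clone names si:dkey-203a12 and si:dkey-77g12, 10 were tested, 3 of them without a RefSeq match and grouped here by clone name alone. Together they took 9.99% and 8.70% of all TPM in the cebpb+/+ and 2.999% and 4.70% in the cebpb-/- libraries, and their median difference was -1.84 scaled and -1.53 as deposited. Of the 10, 2 were called lower (0.153% of all genes were), and 8 of 10 were separated and lower against 7.58% of all genes. This list was drawn up with earlier results of these data known, so its share describes these genes and is no independent evidence.

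RefSeq places a row of genes named spink2 on 1 chromosome, between uvssa and neurl1b. Genes of the family elsewhere were not looked for. Of 16 protein-coding genes between those neighbours, 9 were among the genes tested, 8 of them named spink2, and all 9 had a negative difference on both scales. The 2 genes with the steepest fall, spink2.2 and spink2.7, are next to each other in that order. LOC108192158, at the uvssa end, was at 1550.0 and 1233 TPM in the cebpb+/+ libraries and 332 and 278 TPM in the cebpb-/- libraries and fell as well (log2 difference -2.49, SE 0.25, adjusted p = 0.0337). Its neighbour zgc:158852 (spink2.1) was at 3873 and 3115 TPM in the cebpb+/+ libraries and 1587 and 2223 TPM in the cebpb-/- libraries (log2 difference -1.20, SE 0.26, adjusted p = 0.0955), without overlap between genotypes but not called. At the other end the values were less extreme than in spink2.2 and spink2.7: si:dkey-203a12.8 (spink2.5) was at 19091 and 16645 TPM in the cebpb+/+ libraries and 5045 and 8100.1 TPM in the cebpb-/- libraries (log2 difference -1.79, SE 0.27, adjusted p = 0.0651).

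Si:dkey-203a12.4 (spink2.10), the most abundant of the family, was at 26609.8 and 23944 TPM in the cebpb+/+ libraries and 9561 and 13567 TPM in the cebpb-/- libraries (log2 difference -1.46, SE 0.23, adjusted p = 0.0651). Si:dkey-203a12.7 (spink2.9) was at 4972 and 3898 against 1162 and 1656 TPM and si:dkey-77g12.4 (spink2.11) at 2896 and 2959.9 against 644 and 1387 TPM, in both cases with every mutant library under every wild-type one (adjusted p = 0.0600 and 0.0853). In si:dkey-203a12.5 (spink2.8), at 2494 and 1419 against 644 and 1342 TPM, the second library of each genotype lay close together. Among those without a RefSeq match, si:dkey-203a12.6 was at 16802 and 15036 against 4117 and 6779 TPM and si:dkey-203a12.3 at 20124 and 18445 against 8725 and 13819 TPM, each without overlap, whereas si:dkey-203a12.9 was at 16.0 and 19.2 against 9.96 and 269 TPM and was high in 1 mutant library only. Neurl1b, which closes the row, was at 22.1 and 14.5 against 42.7 and 32.3 TPM (adjusted p = 0.509), and uvssa at or below 0.536 TPM. Reads shared by near-identical copies could be split or dropped in counting, which is not stated, so the values of single members are uncertain. Tested among genes of at least 50 TPM, 8 of the 10 si:dkey-203a12 and si:dkey-77g12 genes passed, all lower, against 7.62% of all genes so tested. That share, too, is of a list chosen with earlier results known, and its members may share reads.

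**Figure D2:**
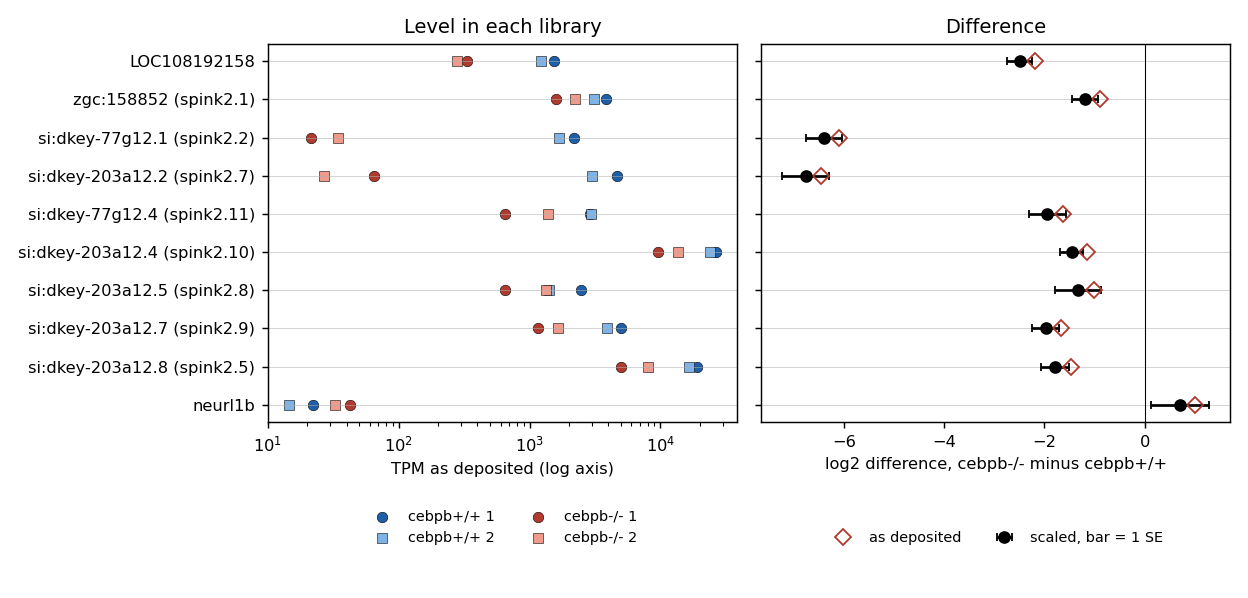
Left, TPM as deposited on a log axis in the 4 libraries (circles and squares, replicates 1 and 2) for the 9 genes tested of the spink2 row and neurl1b, in RefSeq order with RefSeq names in parentheses. Right, the log2 difference of each, scaled (bar, 1 SE) and as deposited: the 9 lie left of 0, with si:dkey-77g12.1 at -6.40 and si:dkey-203a12.2 at -6.76, and neurl1b right of it.

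Other secreted products of the lineage were mostly lower at smaller sizes, and none passed. Eslec (si:dkeyp-75b4.10), whose promoter drives the sorting reporter, was at 36138 and 31898 TPM in the cebpb+/+ libraries and 11658 and 17653 TPM in the cebpb-/- libraries (log2 difference -1.55, SE 0.25, adjusted p = 0.0651; -1.24 as deposited), so the mutant libraries were lower without overlap, with a lower adjusted p when genes of at least 50 TPM were tested alone (adjusted p = 0.0313). Itln1, an intelectin that binds microbial sugars, was at 2694 and 2466 TPM in the cebpb+/+ libraries and 1558 and 1919 TPM in the cebpb-/- libraries (adjusted p = 0.101), and cst14b.2, a cystatin that inhibits cysteine proteases, at 14857 and 11281 against 7712 and 10473 TPM (adjusted p = 0.155). Agr2, a disulfide isomerase of mucus-secreting cells, stood at 3359 and 2905 against 1596 and 2779 TPM, close to the wild type in the second mutant library and well under it in the first. Lect2l, a leukocyte-derived chemotaxin gene that is also on the list of neutrophil markers, was at 45.7 and 89.1 against 13.1 and 0 TPM. Of 19 tested genes on the list of secreted eosinophil products none was called in limma (2 higher and 8 lower at an unadjusted p under 0.05), 17 had a negative difference, 3 were separated and lower and 2 higher (7.58% and 21.7% of all genes), and the median was -0.89 scaled and -0.58 as deposited. The separated lower ones were eslec, lect2l and the granulin gene grna, at 31.8 and 14.1 against 9.13 and 0.319 TPM, and the higher ones grnb, another granulin gene, at 11.3 and 9.93 against 52.6 and 69.9 TPM, and timp4.3, a metalloproteinase inhibitor gene, at 1.58 and 1.85 against 34.1 and 23.1 TPM.

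Receptors and surface proteins moved in both directions. Cd59, a membrane anchor that keeps complement from forming pores, was at 817 and 877 TPM in the cebpb+/+ libraries and 134 and 93.5 TPM in the cebpb-/- libraries, and fell by 3.22 on the log2 scale (SE 0.27, adjusted p = 0.0257). Cxcr4b, the receptor for the chemokine CXCL12 that in mammals holds leukocytes in the marrow, was at 2713 and 2581 TPM in the cebpb+/+ libraries and 1112 and 833 TPM in the cebpb-/- libraries and fell by 1.77 (SE 0.21, adjusted p = 0.0468), with adjusted p = 0.0518 as deposited. Both genes had tight wild-type pairs and mutant pairs well below them. Il1rl1, the receptor for interleukin-33, rose: it was at 45.3 and 60.7 TPM in the cebpb+/+ libraries and 377 and 384 TPM in the cebpb-/- libraries (log2 difference 2.53, SE 0.30, adjusted p = 0.0468). Kita, a receptor tyrosine kinase for Kit ligand, was at 42.9 and 46.9 TPM in the cebpb+/+ libraries and 677 and 377 TPM in the cebpb-/- libraries and rose too (log2 difference 3.16, SE 0.36, adjusted p = 0.0459). The mutant pair of il1rl1 agreed closely, while that of kita spread from 377 to 677 TPM without reaching the wild type. Il1rl1 and kita passed as deposited and did not pass with factors from genes of at least 1 TPM.

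Of 27 tested genes for eosinophil receptors and signalling, these 4 were called (0.326% of all genes were in either direction). On this list 8 were separated and higher and 6 lower (21.7% and 7.58% of all genes), with a median of -0.20 scaled and 0.10 as deposited that changed sign between the scales. Pycard, the ASC adaptor of inflammasomes, was at 424 and 512 TPM in the cebpb+/+ libraries and 190.5 and 140.0 TPM in the cebpb-/- libraries (log2 difference -1.82, SE 0.27, adjusted p = 0.0651). Cd9b, a tetraspanin gene, was at 64.9 and 237 against 14.5 and 26.5 TPM, and ncf1, a subunit of the NADPH oxidase, at 122 and 143 against 87.8 and 45.4 TPM. Ncf1 is also on the list of neutrophil markers. Syk, the tyrosine kinase downstream of Fc receptors, was at 22.9 and 21.7 TPM in the cebpb+/+ libraries and 115 and 89.7 TPM in the cebpb-/- libraries (log2 difference 1.84, SE 0.43, adjusted p = 0.101). Pycard, cd9b and ncf1 were lower and syk higher in both mutant libraries than in both wild-type libraries. Ccr9a, a chemokine receptor, was at 1245 and 1299.6 against 1402 and 479 TPM, high in the first mutant library and low in the second.

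3 further genes fell. Arhgef18b, a guanine nucleotide exchange factor, was at 235 and 175 TPM in the cebpb+/+ libraries and 5.74 and 3.37 TPM in the cebpb-/- libraries (log2 difference -5.51, SE 0.53, adjusted p = 0.0337). LOC103911970, a protein-coding locus without a name, was at 176 and 116 TPM in cebpb+/+ and listed at 0 in both cebpb-/- libraries (adjusted p = 0.0459). The gene zgc:158463, a ribosomal RNA gene by its RefSeq biotype, was at 889 and 793 TPM in the cebpb+/+ libraries and 183 and 190.4 TPM in the cebpb-/- libraries (log2 difference -2.47, SE 0.24, adjusted p = 0.0337). In all 3 the replicates of a genotype lay far closer to each other than to the other genotype.

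A gene of growth arrest stood among those that rose. Cdkn1a, which encodes the cyclin-dependent kinase inhibitor p21, was at 8.98 and 11.1 TPM in the cebpb+/+ libraries and 197 and 309.6 TPM in the cebpb-/- libraries, with the mutant libraries far above the wild-type ones (log2 difference 4.201, SE 0.45, adjusted p = 0.0448). Gadd45aa, a DNA damage-inducible growth arrest gene, was at 96.5 and 93.1 against 308 and 275 TPM, and phlda3, a target of p53 in mammals that restrains Akt, at 29.0 and 43.4 TPM in cebpb-/- and listed at 0 in cebpb+/+. Of 27 tested genes on this list only cdkn1a was called (0.173% of all genes were called higher). On it 7 were separated and higher (21.7% of all genes were) and 1 lower (7.58% of all genes were), and the median was 0.31 scaled and 0.62 as deposited. The separated lower one was bbc3, the gene of the cell death activator Puma, at 28.1 and 19.9 against 0.944 and 0 TPM. Among 18 tested genes of S phase and mitosis none was called in limma (0 higher and 1 lower at an unadjusted p under 0.05). Of these 2 were separated and higher and 1 lower, which is 11.1% and 5.56% against 21.7% and 7.58% of all genes. Pcna, the DNA polymerase clamp, was at 53.5 and 55.6 against 99.7 and 30.1 TPM, where the mutant libraries lay on both sides of the wild type.

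The other protein-coding genes that rose have varied roles. S100a10b, which in mammals encodes the partner of annexin A2 at the cell membrane, was at 664 and 823 TPM in the cebpb+/+ libraries and 3129 and 2790.5 TPM in the cebpb-/- libraries (log2 difference 1.69, SE 0.19, adjusted p = 0.0450). Riok3, an atypical kinase of the RIO family, was at 71.2 and 92.3 TPM in the cebpb+/+ libraries and 761 and 500.0 TPM in the cebpb-/- libraries (log2 difference 2.60, SE 0.31, adjusted p = 0.0468). Si:busm1-105l16.2, protein-coding and known by its clone name only, was at 0.0941 and 0.0901 TPM in the cebpb+/+ libraries and 306 and 257 TPM in the cebpb-/- libraries (log2 difference 7.84, SE 0.68, adjusted p = 0.0257), barely above 0 in the wild type and high in both mutant libraries. S100a10b and riok3 did not pass with factors from genes of at least 1 TPM. Cdkn1a, kita, il1rl1 and mir222b did not pass there either.

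**Figure D3:**
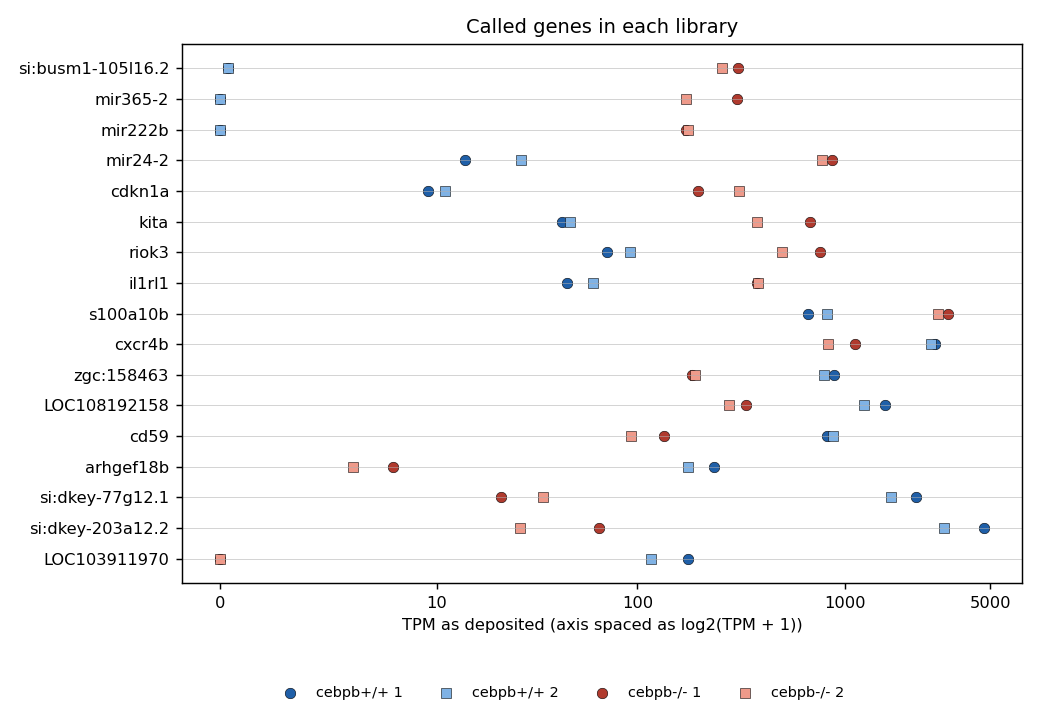
TPM as deposited of the 17 called genes in each of the 4 libraries, on an axis spaced as log2 of TPM plus 1, with replicates 1 and 2 as circles and squares. In every row the blue cebpb+/+ points and the red cebpb-/- points lie apart, and mir365-2, mir222b and LOC103911970 have 1 genotype at 0.

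3 of the 9 genes that rose were microRNA genes. Mir24-2 was at 14.1 and 27.0 TPM in the cebpb+/+ libraries and 868 and 775 TPM in the cebpb-/- libraries (log2 difference 5.02, SE 0.37, adjusted p = 0.0172). Mir365-2 was at 302 and 172 TPM and mir222b at 171 and 175 TPM in cebpb-/-, and both were listed at 0 in cebpb+/+ (adjusted p = 0.0337 and 0.0450). All 3 were read in both mutant libraries. Their genes are very short, so that few reads make a high TPM, and the libraries were not made to catch small RNAs, so the values describe reads over the locus and not mature microRNA. In all 20 microRNA genes were tested, of which 3 were called higher (0.173% of all genes were). Of the 20, 4 were separated and higher and 2 lower (21.7% and 7.58% of all genes). Mir223, a microRNA of granulocytes, was at 763 and 854 against 74.1 and 564 TPM, with the first mutant library far under the wild type and the second nearer to it. Mir21-2 was at 26.9 and 70.9 TPM in cebpb+/+ and listed at 0 in cebpb-/-. Mir146b-1, at 366 and 472 against 0 and 366 TPM, was listed at 0 in 1 mutant library and at the wild-type level in the other.

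Immediate-early genes, switched on within minutes by growth signals and stress, took a larger share of the mutant libraries. The list of AP-1 and immediate-early genes took 1.16% and 1.16% of all TPM in the cebpb+/+ and 2.52% and 2.39% in the cebpb-/- libraries. None of its 29 tested genes was called in limma (12 higher and 1 lower at an unadjusted p under 0.05, and 5 called higher as deposited), 10 were separated and higher and 1 lower (21.7% and 7.58% of all genes), and the median was 0.55 scaled and 0.86 as deposited (0.51 to 0.79 with 1 library left out). Fosab, a Fos subunit of the AP-1 factor, was at 2050.4 and 1684 TPM in the cebpb+/+ libraries and 6116 and 5832 TPM in the cebpb-/- libraries (log2 difference 1.37, SE 0.20, adjusted p = 0.0651). Jun, its partner, was at 329 and 188 against 1048 and 809 TPM, fosb at 53.2 and 62.8 against 289 and 236 TPM and junbb at 1305 and 1351 against 3332 and 2905 TPM. Atf3, a stress-response factor, was at 118 and 186 TPM in the cebpb+/+ libraries and 758 and 831 TPM in the cebpb-/- libraries (log2 difference 2.103, SE 0.28, adjusted p = 0.0588), and dusp1, a phosphatase that turns off MAP kinases, at 549 and 599.9 TPM in the cebpb+/+ libraries and 2007 and 1687 TPM in the cebpb-/- libraries (log2 difference 1.37, SE 0.20, adjusted p = 0.0651). In each of these 6 genes both mutant libraries were above both wild-type libraries. Egr3, at 94.0 and 87.5 against 52.7 and 18.9 TPM, was lower in both. When genes of at least 50 TPM were tested alone, 8 of 23 on this list passed, all higher, against 8.10% of all genes so tested.

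Transcription factors outside the C/EBP family differed one by one. Nfil3-6, a bZIP factor of the NFIL3 family, was at 21.7 and 42.5 TPM in the cebpb+/+ libraries and 341 and 384 TPM in the cebpb-/- libraries (log2 difference 3.22, SE 0.40, adjusted p = 0.0515), and bhlhe40, a basic helix-loop-helix repressor, at 131 and 137 TPM in the cebpb+/+ libraries and 691 and 579.7 TPM in the cebpb-/- libraries (log2 difference 1.92, SE 0.25, adjusted p = 0.0563). Both missed the threshold by little and passed among genes of at least 50 TPM (adjusted p = 0.0245 for each). Klf6a, a Krüppel-like factor, was at 85.0 and 87.5 against 391 and 365 TPM, and mycb, a Myc factor, at 38.7 and 86.1 against 322 and 266 TPM, higher in both mutant libraries. Spi1b, which encodes the myeloid factor Pu.1, was at 423 and 533 TPM in the cebpb+/+ libraries and 319.8 and 227 TPM in the cebpb-/- libraries (log2 difference -1.12, SE 0.27, adjusted p = 0.103), lower in both. Among 25 tested blood transcription factors 4 were separated and higher and 1 lower (21.7% and 7.58% of all genes), the lower one being klf2b at 148 and 120.1 against 34.4 and 78.7 TPM.

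The secretory pathway and its stress sensors showed mixed differences. Of 65 tested genes of endoplasmic reticulum (ER) protein processing none was called in limma (10 higher and 10 lower at an unadjusted p under 0.05), 10 were separated and higher and 2 lower (21.7% and 7.58% of all genes), and the median was 0.10 scaled and 0.41 as deposited (-0.14 with factors from genes of at least 1 TPM). Ssr1, a subunit of the translocon-associated complex, was at 315 and 242 TPM in the cebpb+/+ libraries and 62.0 and 30.8 TPM in the cebpb-/- libraries (log2 difference -2.94, SE 0.44, adjusted p = 0.0651), lower in both mutant libraries. Derl1, which moves misfolded proteins out of the ER, was at 97.2 and 119 against 347 and 643 TPM, hyou1, an ER chaperone, at 59.9 and 73.1 against 221 and 212 TPM, and sdf2l1, another ER chaperone component, at 101 and 80.3 against 315 and 261 TPM. These 3 were higher in both mutant libraries. Rab1ba, a GTPase of ER to Golgi transport, was at 89.5 and 108 TPM in the cebpb+/+ libraries and 434 and 465 TPM in the cebpb-/- libraries (log2 difference 1.87, SE 0.27, adjusted p = 0.0651). Atf4a, the translational stress factor of the integrated stress response, was at 405 and 331 against 1297 and 1038 TPM, while chac1, one of its targets in mammals, was at 708 and 836 against 477 and 543 TPM, so the pair lay on opposite sides of the wild type.

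Transcripts of the ribosome made up a smaller part of the mutant libraries. As a sum, genes of cytosolic ribosomal proteins made up 21.3% and 21.1% of all TPM in the cebpb+/+ and 14.01% and 16.0% in the cebpb-/- libraries. None of the 76 tested was called in limma (0 higher and 65 lower at an unadjusted p under 0.05), but 66 of them were lower without overlap on both scales, against 15.5% of all genes, and 1 was higher (32.2% of all genes). The median was -0.81 scaled and -0.50 as deposited, and -0.95 to -0.63 with 1 library left out, and only 1 gene, rps3, was separated by log2 1. Rps3 was at 1122 and 1113 TPM in the cebpb+/+ libraries and 580.1 and 505 TPM in the cebpb-/- libraries (log2 difference -1.35, SE 0.20, adjusted p = 0.0651), rps19 at 2662 and 2574 TPM in the cebpb+/+ libraries and 1548 and 1451 TPM in the cebpb-/- libraries (log2 difference -1.11, SE 0.18, adjusted p = 0.0651) and rpl36 at 4879 and 5107 against 2316 and 3132 TPM. Tested among genes of at least 50 TPM, 46 of 73 passed, all lower, against 7.62% of all genes so tested.

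The study names 8 genes, 5 of them for ribosomal proteins, among a longer set of Cebpβ targets that it chose by lower levels in these same libraries together with Cebpβ binding in other larvae, so their direction is not independent evidence. All 8 had negative differences without overlap, none was called in limma (0 higher and 8 lower at an unadjusted p under 0.05), and the median was -0.97 scaled and -0.66 as deposited. The study tested read counts with DESeq2 under another filter, so its calls and those here are not like for like. Tested among genes of at least 50 TPM, 6 of the 8 passed, all lower, against 7.62% of all genes so tested. The study's choice by lower levels in these libraries favours a high share, so it is no independent evidence either. Besides rps3 and eslec, rps8a was at 2442 and 2294 against 1585 and 1712 TPM, rps26 at 1689 and 1444 against 786 and 1076 TPM and rpl38 at 2542 and 2556 against 1569.8 and 2066 TPM. Eif5a, a translation factor that helps ribosomes through stalling sequences, was at 2625 and 2398 against 1847 and 2017 TPM, and rsl24d1, a ribosome assembly factor, at 777 and 666 against 524 and 451 TPM. Of 61 tested translation factors 23 were lower and 10 higher without overlap, against 15.5% and 32.2% of all genes (median -0.50 scaled and -0.19 as deposited). By the stricter rule 5 were separated and lower and 4 higher (7.58% and 21.7% of all genes). With genes of at least 50 TPM tested alone, 10 of 42 translation factors passed as lower and 1 as higher, against 7.62% and 8.10% of all genes so tested. Eif4a1a, the RNA helicase of initiation, was an exception at 348 and 362 TPM in the cebpb+/+ libraries and 1092 and 1379 TPM in the cebpb-/- libraries (log2 difference 1.48, SE 0.23, adjusted p = 0.0651). The 36 tested nucleolar and ribosome biogenesis genes had a median of -0.63 scaled and -0.32 as deposited, with 3 separated and lower (7.58% of all genes) and 1 higher (21.7%).

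Nuclear genes of oxidative phosphorylation, the subunits of the respiratory chain and ATP synthase, had a median of -0.59 scaled and -0.28 as deposited over 76 tested genes. None was called in limma (0 higher and 19 lower at an unadjusted p under 0.05). Without overlap at any size 24 were lower and 4 higher, against 15.5% and 32.2% of all genes. By the stricter rule 2 were separated and lower and 0 higher (7.58% and 21.7% of all genes). With genes of at least 50 TPM tested alone, 6 of 60 passed, all lower, against 7.62% of all genes so tested. As a sum the 101 genes of the list took 1.60% and 1.68% of all TPM in the cebpb+/+ and 1.46% and 1.45% in the cebpb-/- libraries. Cox7b, a cytochrome c oxidase subunit, was at 561 and 641 TPM in the cebpb+/+ libraries and 361 and 339 TPM in the cebpb-/- libraries (log2 difference -1.09, SE 0.22, adjusted p = 0.0885), and atp5l, an ATP synthase subunit, at 810.3 and 896 against 478 and 578 TPM. Both were lower in both mutant libraries. Phb2a, a prohibitin of the inner mitochondrial membrane, was at 68.6 and 73.9 TPM in the cebpb+/+ libraries and 11.4 and 7.21 TPM in the cebpb-/- libraries (log2 difference -3.13, SE 0.55, adjusted p = 0.0691). The 14 tested glycolytic enzymes had a median of -0.25 scaled and 0.06 as deposited, so its sign changed with the scale, and of these only pfkpa, the platelet-type phosphofructokinase gene, was separated, and it was higher.

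Inflammatory and chemokine genes were split. Cxcl18b, a chemokine that attracts neutrophils in zebrafish, was at 105 and 158 TPM in cebpb-/- and listed at 0 in cebpb+/+ (adjusted p = 0.0588), and cxcl19 was at 39.0 and 55.7 TPM in cebpb+/+ and listed at 0 in cebpb-/-. Ccr12b.1, a chemokine receptor, was at 7.97 and 33.97 TPM in the cebpb+/+ libraries and 375 and 498 TPM in the cebpb-/- libraries (log2 difference 4.31, SE 0.65, adjusted p = 0.0651). Il1b, the inflammatory cytokine interleukin-1 beta, was at 118 and 408 against 112 and 20.9 TPM, with its lowest value in the second mutant library, and tnfaip3, which dampens NF-kappaB signalling, at 98.1 and 78.8 against 409 and 186 TPM. Of 32 tested NF-kappaB and inflammatory genes 8 were separated and higher and 4 lower (21.7% and 7.58% of all genes), and none was called in limma (7 higher and 2 lower at an unadjusted p under 0.05). Of 10 tested chemokine and chemokine receptor genes cxcr4b was the only one called (0.153% of all genes were called lower). Of these 10 genes 3 were separated and higher and 2 lower (21.7% and 7.58% of all genes). In the BCL2 family list of 23 tested genes 7 were separated and higher and 2 lower, beside the same shares, with bcl2a, which protects from cell death, at 7.01 and 8.55 against 43.8 and 53.8 TPM.

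The study's clusters of sorted adult kidney marrow cells gave lists of stage markers. Pre.Eos markers (pre-eosinophils, 238 tested) had a median of -0.62 scaled and -0.31 as deposited, mat.Eos markers (mature eosinophils, 219 tested) of -0.06 scaled and 0.25 as deposited and EoP markers (eosinophil progenitors, 136 tested) of 0.05 scaled and 0.35 as deposited. The latter pair of medians changed sign under other settings. Of the pre.Eos markers 2 were called, both lower (0.153% of all genes were), 16 were separated and lower and 9 higher, which is 6.72% and 3.78% against 7.58% and 21.7% of all genes. Without overlap at any size 112 were lower and 33 higher, against 15.5% and 32.2% of all genes. With genes of at least 50 TPM tested alone, 51 of 209 passed as lower and 4 as higher (7.62% and 8.10% of all genes so tested). Without the 49 ribosomal protein genes among the pre.Eos markers the median was -0.28 scaled and 0.02 as deposited. Of those 189 genes 67 were lower and 33 higher without overlap. Of the mat.Eos markers 1 was called higher and 4 lower (0.173% and 0.153% of all genes were), with 32 separated and higher (14.6%) and 26 lower (11.9%), and of the EoP markers none was called in limma (13 higher and 15 lower at an unadjusted p under 0.05), with 19 separated and higher (13.97%) and 4 lower (2.94%). A further list of kidney marrow eosinophil markers from the study (73 genes with values, 69 of them tested) took 27.18% and 24.1% of all TPM in the cebpb+/+ and 12.83% and 17.3% in the cebpb-/- libraries. Of the tested ones 4 were called lower (0.153% of all genes were). Among them 16 were separated and lower (23.2%) and 4 higher (5.797%), against 7.58% and 21.7% of all genes. All 10 si:dkey-203a12 and si:dkey-77g12 genes are on that list, and without them its other 63 genes with values took 17.2% and 15.4% against 9.83% and 12.59%.

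Transcripts of other cell types were also present, and some of their lists differed in share between genotypes. Pigment cell markers took 0.571% and 0.668% of all TPM in the cebpb+/+ and 3.07% and 1.96% in the cebpb-/- libraries: of 17 tested genes 11 were separated and higher and none lower (21.7% and 7.58% of all genes), and none was called in limma (11 higher and 0 lower at an unadjusted p under 0.05, and 2 called higher as deposited; median 1.86 scaled and 2.17 as deposited, 1.501 to 2.02 with 1 library left out). Tyrp1b, an enzyme of melanin synthesis, was at 3088 and 3477 TPM in the cebpb+/+ libraries and 16552 and 10749.8 TPM in the cebpb-/- libraries (log2 difference 1.71, SE 0.22, adjusted p = 0.0563), dct, another such enzyme, at 341 and 468 TPM in the cebpb+/+ libraries and 3042 and 1863 TPM in the cebpb-/- libraries (log2 difference 2.26, SE 0.28, adjusted p = 0.0515), and pmela, the melanosome matrix protein, at 1044 and 1239.8 against 6975 and 3783 TPM. Both mutant libraries exceeded both wild-type libraries in each, and the first mutant library was the highest. Mitfa, the master factor of melanophores, was at 0.238 and 11.6 against 94.4 and 40.5 TPM, so it entered through the mutant libraries. Kita, described above among the receptors, is also required by zebrafish melanophores, and the part of pigment cell RNA in its rise was not tested. Among genes of at least 50 TPM, 6 of 10 pigment markers passed, all higher, against 8.10% of all genes so tested.

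Keratinocyte markers were a smaller share, 0.0216% and 0.0756% of all TPM in the cebpb+/+ and 0.191% and 0.235% in the cebpb-/- libraries, and 7 of 10 tested were separated and higher (21.7% of all genes were), none called in limma (6 higher and 0 lower at an unadjusted p under 0.05). Only 10 of the 31 keratinocyte markers with values were tested. Some entered through the mutant libraries alone, such as krtt1c19e at 0 and 3.86 against 88.1 and 604 TPM. Such genes come out higher through the filter, so the share is no independent evidence. Krt4, a surface keratin, was at 3.34 and 18.9 against 178 and 498 TPM, and cdh1, epithelial cadherin, at 30.1 and 58.2 against 233 and 214 TPM, with both mutant libraries above both wild-type ones. Progenitor markers, 6 tested, had a median of 1.32 scaled and 1.63 as deposited, with 4 separated and higher (21.7% of all genes were), among them kita and fabp3 at 534 and 404 against 1120.3 and 1266 TPM. Meis1b, another of the tested ones, entered through the mutant libraries, at 1.91 and 0 against 23.4 and 19.3 TPM. Neutrophil markers made up 0.0605% and 0.0744% of the cebpb+/+ and 0.0524% and 0.0432% of the cebpb-/- libraries. Of 8 tested, 3 were separated and lower, lect2l and ncf1 among them, and 1 higher (7.58% and 21.7% of all genes). Their median was -0.67 scaled and -0.37 as deposited. Macrophage markers made up 0.0636% and 0.0529% against 0.0846% and 0.0785%. Of 9 tested macrophage markers, however, 7 had a negative difference. Their median was -1.58 scaled and -1.35 as deposited, and -2.87 to 0.45 with 1 library left out. The macrophage sum leaned on apoeb, at 145 and 9.26 against 199 and 723 TPM, where the whole list summed to 785 TPM in the second mutant library. Erythroid markers were highest in the second wild-type library, at 0.221% against 0.0444% to 0.0757% in the others. Their part in the other results was not tested.

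**Figure D4:**
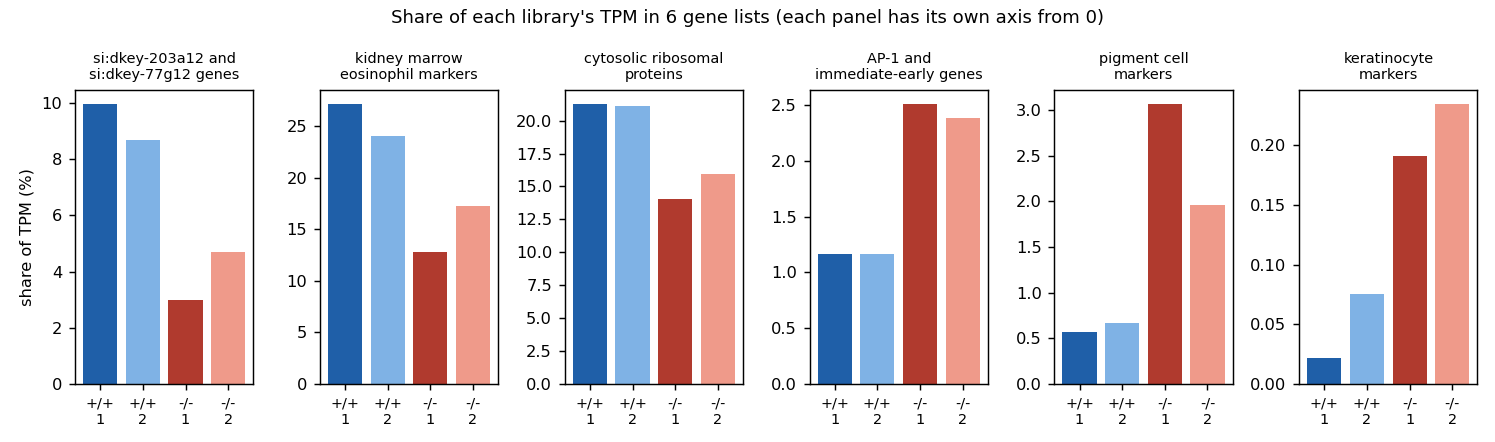
Bars give the share of all TPM (percent, each axis from 0) taken by 6 gene lists in cebpb+/+ replicates 1 and 2 (blue) and cebpb-/- replicates 1 and 2 (red). In the first 3 panels, such as ribosomal proteins at 21.3% and 21.1% against 14.01% and 16.0%, both mutant libraries lie under the wild type, and in the last 3 above it.

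Side by side, the scaled list medians ran from -2.31 for 10 erythroid markers to 2.17 for 3 liver markers, beside 0.15 for all 5213 genes. Both extremes moved with single libraries: with 1 library left out the former ran from -4.58 to -0.40 and the latter from 0.43 to 5.93. The si:dkey-203a12 and si:dkey-77g12 genes were at -1.84 and the keratinocyte markers at 2.101. Of 46 lists with a median, 21 kept its sign under every alternative setting and 25 did not. Among those that kept it were the si:dkey, ribosomal, pre.Eos and oxidative phosphorylation lists on the negative side and the AP-1, pigment and keratinocyte lists on the positive side.

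**Figure D5:**
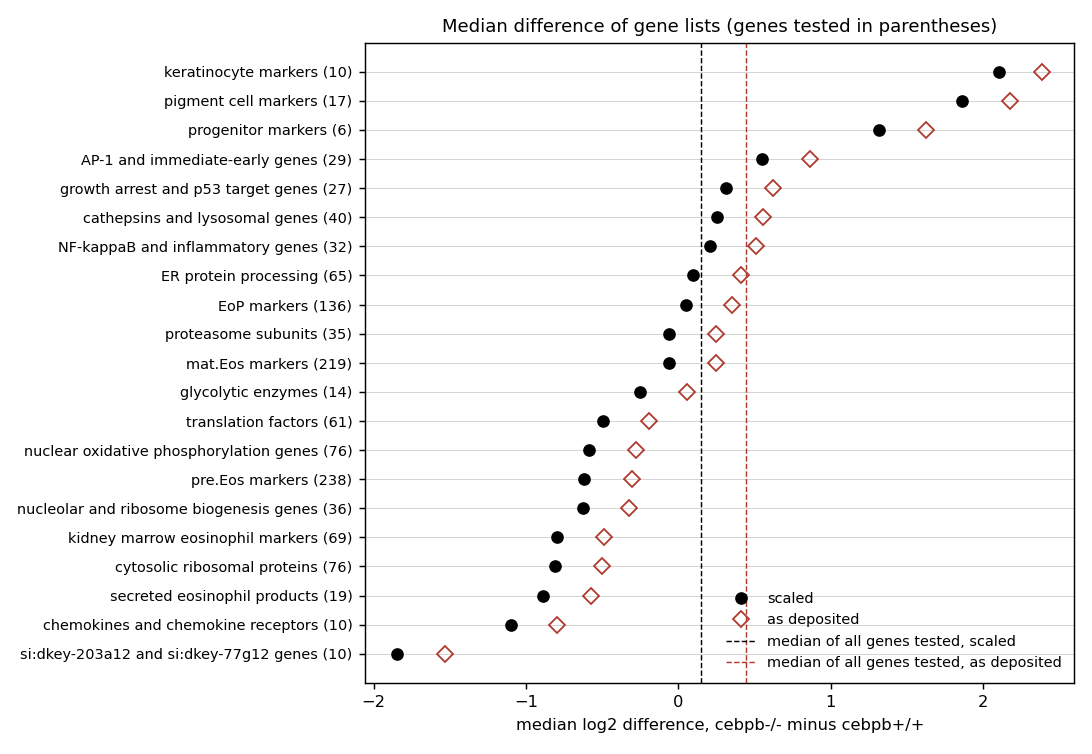
Median log2 difference, cebpb-/- minus cebpb+/+, of 21 gene lists with the number of tested genes in parentheses, scaled (filled) and as deposited (open). Dashed lines mark the medians of all 5213 genes, 0.15 and 0.44, with the ribosomal list at -0.81 and -0.50 on one side and the pigment list at 1.86 and 2.17 on the other.

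Some abundant transcripts stood out in single libraries. Il13, an interleukin of type 2 immunity, was at 298.8 TPM in the first mutant library and listed at 0 in the other 3 libraries, and il10, an anti-inflammatory interleukin, at 865 TPM in the second, at 15.1 TPM in the first wild-type library and at 0 in the remaining 2. Tnfrsf9b, a receptor of the TNF family, was at 252 and 354 against 3390.3 and 528 TPM, and hbae3, an embryonic globin, at 7.90 and 834 against 1.41 and 0 TPM. Replicates of 1 genotype lay far apart in each of these 4 genes, and none was called.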

How the data were processed

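RNA of eGFP-positive cells sorted from larvae was sequenced from 2 pools per genotype with a modified Smart-seq2 protocol. Per the labels and the study's methods, the authors aligned reads to GRCz11 with STAR, counted them with featureCounts and compared genotypes with DESeq2. They deposited TPM per gene, which hold neither counts nor depth, so precision rests on the replicates alone. Whether shared reads were counted is not given in the sources used here.

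Genes averaging at least 10 TPM were kept. TPM were scaled by the median of ratios and tested as log2(TPM + 1) with limma 3.58.1 in R 4.3.3, with the variance modelled as a trend on the mean, genotype as sole factor and Benjamini-Hochberg adjustment, after the script was tested on simulated data. Other scalings, pseudocounts, filters, variance models, a replicate block and each library left out were tried. Fold changes of low genes are understated by the pseudocount.

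The members and lists were chosen with earlier results of these data known. Named genes were those the study names, the 15 leading separated genes in each direction with a mean of at least 20 TPM, up to 4 of each list with the smallest p, the 10 most abundant genes of each genotype and the 5 of at least 100 TPM with the largest replicate gaps. Outside this rule, cd9b, egr3, fosb, il1b, jun, junbb, klf2b, grna, mir21-2, mir223, mitfa, neurl1b, pfkpa, syk, timp4.3, tnfaip3, si:dkey-203a12.5, si:dkey-203a12.9, si:dkey-77g12.4 and zgc:158852 were chosen after their values were seen. A few genes of these lists are not reported here by name.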

Additional observations from a re-analysis of the deposited data

How the results depend on the processing

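The counts of called genes, 9 higher and 8 lower, depended on the setting, while none of the 17 called genes reversed its direction under any of them. In TPM as deposited 26 were higher, with factors from genes of at least 1 TPM 3, and after quantile normalization 19, while 7, 8 and 7 were lower. A pseudocount of 0.1 gave 1 higher and 3 lower, and 5 gave 57 and 37. A filter at a mean of 1 TPM gave 0 and 0 in limma (1613 at an unadjusted p under 0.05, smallest adjusted p 0.0637), no filter 0 and 0 (1497), no mean-variance trend 0 and 0 (860), a filter at 50 TPM 150 and 141, and the robust fit 52 and 30. With 1 library left out both counts were 0 to 0, with 458 to 1259 genes at an unadjusted p under 0.05, and the lone library of a genotype was assumed to vary like the other pair. The cause of these shifts was not tested. Separated genes numbered 2268 higher and 1206 lower from a mean of 1 TPM, 2352 and 1342 with no filter, 314 and 127 from 50 TPM, and 1265 to 1504 and 455 to 721 with 1 library left out, where 721 was without cebpb-/- replicate 1.

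With the replicate number as a block, 160 genes were higher and 103 lower, all 17 among them. The numbers do not pair the samples: deviations of same-numbered libraries correlated at -0.036.

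Over all named genes and alternatives, 2642 values kept their side of the threshold, 234 passed only under the alternative, 140 no longer passed and 33, all of genes that were not called, changed sign. The 140 are all of called genes, and each called gene still passed under only 5 to 8 of the 15 alternatives. The 2642 include values of genes that were called in neither fit, so they do not measure how stable the calls are. Of the list medians 147 moved and 543 did not. With 2 libraries per genotype and unknown depth, values of low and short genes are the least certain.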

Other observations

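Genes of the actin cytoskeleton and cell shape, which carry leukocyte movement, held 11 separated and higher genes of 49 tested, near the 21.7% of all genes, and 1 lower (7.58% of all genes were). None was called in limma (8 higher and 7 lower at an unadjusted p under 0.05), and the median was 0.06 scaled and 0.36 as deposited. Pfn2, a profilin that delivers actin monomers, was at 137 and 128 TPM in the cebpb+/+ libraries and 435 and 389 TPM in the cebpb-/- libraries (log2 difference 1.32, SE 0.26, adjusted p = 0.0880). Both mutant libraries were above both wild-type libraries.

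Redox genes had 7 separated and higher and 2 lower of 31 tested, which is 22.6% and 6.45%, near the 21.7% and 7.58% of all genes, none called in limma (7 higher and 2 lower at an unadjusted p under 0.05), with a median of -0.13 scaled and 0.18 as deposited. Gpx4a, which reduces lipid peroxides, was at 37.4 and 49.5 TPM in the cebpb+/+ libraries and 201 and 216 TPM in the cebpb-/- libraries (log2 difference 1.94, SE 0.34, adjusted p = 0.0680), and prdx6, a peroxiredoxin, at 110.1 and 128 against 352 and 329 TPM. Both mutant libraries were above the wild type in each. Of 40 tested cathepsin and lysosomal genes 6 were separated and higher and 1 lower, against 21.7% and 7.58% of all genes.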
